A study of Mus musculus with 7 samples.

Results

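Transcripts of 33 genes of cholesterol synthesis, transport and regulation were described in motor cortex of mice that model poly-GA disease. The genes were taken by symbol from the table of gene counts, where all 33 were found among 54532 genes, and all 33 were among the 16308 genes that passed the filter on low counts. The groups were 4 libraries of mice labelled cKO (conditional knockout) and 3 libraries of mice labelled WT. Both genotypes received the GA100 virus on postnatal day 0, into the left and right lateral ventricles, and the brain was sampled 3 months after injection, so both groups carry the virus and no uninjected mice were analysed here. The labels do not name the deleted gene, the Cre driver or the cells that carry the deletion. They also do not state that each library came from a separate mouse, so every p-value reflects only the spread among the libraries, which may be technical in part. The series title names the RNA-binding protein TIA1, C9orf72 poly-GA, a chain of repeated glycine and alanine, and the HSP70 family of chaperones.

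Brain cholesterol is made within the brain, because lipoproteins of the blood do not cross the blood-brain barrier, and most of it lies in myelin and in the membranes of neurons and glia. Acetyl-CoA is built up through mevalonate to squalene, which is closed to a sterol and trimmed to cholesterol, and the SREBP transcription factors switch on these enzymes when sterol is low in the membrane of the endoplasmic reticulum. The LXR nuclear receptors respond to oxysterols and switch on efflux genes, by which astrocytes pass cholesterol to neurons on particles that carry apolipoprotein E, while neurons dispose of excess as a hydroxylated sterol.

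Library totals ran from 15181390 to 16403202 counts in cKO and from 15213977 to 16463721 counts in WT. Tia1 had 79.1 ± 4.29 CPM, counts scaled to the library total (SD, n = 4), in cKO and 75.1 ± 18.4 CPM (SD, n = 3) in WT, a log2 fold change of 0.07, so cKO libraries held no less of this transcript, and a count over the whole gene cannot check a deleted part; directions are for the libraries as labelled. Markers of cortical excitatory neurons were present in both groups, with 195 FPKM of Slc17a7, the vesicular glutamate transporter, in cKO and 242 FPKM in WT, and 7.92 FPKM of Fezf2, a marker of deep-layer neurons, in cKO and 10.6 FPKM in WT. Transcripts of Xist, carried by female mice, were found in cKO replicate 1 and WT replicate 1 (19151 and 15217 counts), against 0 to 8 counts in the other 5 libraries, whose Ddx3y counts of 1073 to 1386 mark male mice. Each genotype therefore held libraries of more than 1 mouse, and whether every library was a separate mouse is not stated. Markers of neighbouring tissue differed between libraries: the mean of 8 meningeal fibroblast markers, as log2 CPM relative to each gene's average, was 0.66 in cKO replicate 3 and 0.81 in WT replicate 1 and at most 0.11 elsewhere. The mean of 15 myelin markers was lowest in the same 2 libraries (-0.44 in cKO replicate 3 and -0.60 in WT replicate 1), and the mean of the 4 choroid plexus markers that passed the filter, of 7, was 1.47 in cKO replicate 4 and at most 0.18 elsewhere.

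Across the 33 genes the 2 genotypes lay close together. Log2 fold changes (cKO minus WT throughout) were positive for 16 of the 33 and negative for 17, and their median was -0.0021, against a median of 0.0074 over all genes tested. Idi1 had the highest value, 0.37, and Fdps, measured by at most 14 counts, the lowest, -0.22. The median size of the change without its sign was 0.066, against 0.118 over all genes tested. The members were also measured more precisely, with a median standard error of 0.102, against 0.137 over all genes tested. In 30 of the 33 the 95% interval lay within a 1.5-fold change in either direction, the others being Mvd, Idi1 and Fdps. The same held for 10686 of the 16308 genes tested.

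Called at an adjusted p under 0.05 (edgeR quasi-likelihood test, Benjamini-Hochberg adjustment over all genes tested) were 0 of the 33, beside 0% of all genes tested, and the members' adjusted p ran from 0.679 to 0.999. At an unadjusted p under 0.05 stood 4 of the 33 (12.1%), beside 7.14% of all genes tested. All 4 had higher values in cKO, a direction in which 4.22% of all genes tested stood, and 0 had lower values, beside 2.91% of all genes. They were Soat1, Idi1, Abca1 and Npc1. Every cKO library lay above every WT library for 3 of the 33 (Idi1, Abca1 and Soat1), beside 3.97% of all genes tested, and every cKO library lay below every WT library for 0, beside 3.42%. DESeq2 and limma-voom also called 0 of the 33. Of all genes, DESeq2 called 12 and limma-voom 0, and edgeR with the replicate number as a block called 2, neither of them a member. Without WT replicate 1 the count of members at an unadjusted p under 0.05 was 2 (Idi1 and Soat1), while the count over all genes tested also fell, from 1164 to 558.

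**Figure D1:**
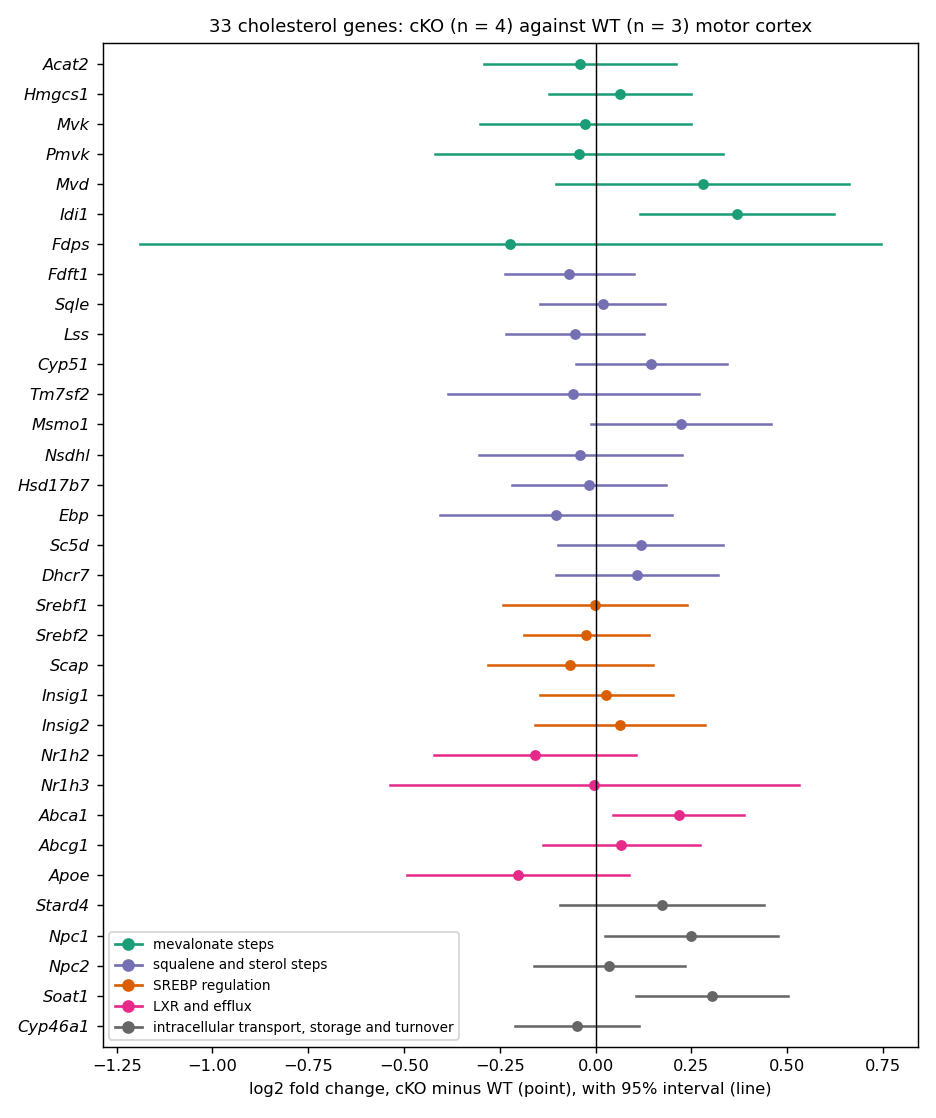
Log2 fold change of each of the 33 genes, cKO (n = 4) minus WT (n = 3), as a point with its 95% interval as a line, coloured by role; the vertical line marks no difference. The intervals of Idi1, Abca1, Npc1 and Soat1 lie above 0 before adjustment over all genes, and that of Fdps, at 6 to 14 counts, is the widest.

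The early steps of the pathway, from acetyl-CoA to farnesyl diphosphate, were represented by 7 enzymes with a median log2 fold change of -0.03, and 1 of the 7, Idi1, stood at an unadjusted p under 0.05. Idi1 (ENSMUSG00000058258, chromosome 13, 8885501 to 8892451, forward strand, mm10) encodes the isomerase that turns isopentenyl diphosphate into dimethylallyl diphosphate, the primer for chain building. Its level was 27.7, 25.2, 32.5 and 33.5 CPM in cKO replicates 1 to 4 (460, 379, 481 and 535 counts), against 22.0, 24.6 and 22.5 CPM in WT replicates 1 to 3 (359, 398 and 341 counts). The groups did not overlap, although cKO replicate 2 lay close to WT replicate 2. The mean of 29.7 ± 3.94 CPM (SD, n = 4) in cKO was 1.29 times that of 23.0 ± 1.37 CPM (SD, n = 3) in WT. The log2 fold change was 0.37 ± 0.12 (SE), with an unadjusted p of 0.0079 and an adjusted p of 0.679 in edgeR.

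Mvd, the decarboxylase that makes isopentenyl diphosphate, had 12, 12.2, 11.7 and 16.6 CPM in cKO (199, 184, 173 and 265 counts), against 11.6, 12.5 and 8.25 CPM in WT (190, 203 and 125 counts). One high cKO library (replicate 4) and one low WT library (replicate 3) set the means apart, and the other 5 libraries lay between 11.6 and 12.5 CPM. The log2 fold change was 0.28 ± 0.18 (SE; unadjusted p = 0.136), and 0.12 without WT replicate 3. Hmgcs1, which makes HMG-CoA and was the most abundant of these enzymes per length at 52.5 FPKM in cKO and 50.4 FPKM in WT, had 228, 228, 278 and 237 CPM in cKO (3784, 3421, 4105 and 3776 counts), against 239, 232 and 225 CPM in WT (3902, 3753 and 3403 counts). Of these only cKO replicate 3 stood apart, and without it the log2 fold change of 0.07 ± 0.09 (SE) was -0.01. Acat2 (-0.04), which joins acetyl-CoA units, and the kinases Mvk (-0.03) and Pmvk (-0.04) had means of 26.8, 13.1 and 15.0 CPM in cKO, against 27.5, 13.4 and 15.4 CPM in WT.

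Fdps, the synthase of farnesyl diphosphate, was nearly absent from the table, at 6, 13, 6 and 12 counts in cKO and 9, 10 and 14 counts in WT. Per length this was 0.141 FPKM in cKO and 0.166 FPKM in WT, the lowest of the 33, although the other 17 enzymes of synthesis lay between 1.69 and 52.5 FPKM in cKO. In the GENCODE M21 annotation, 1124 of the 4208 exonic bases of Fdps (26.7%) lie within exons of the overlapping gene Gm43738, and 51.9% of its 50-base stretches also occur in transcripts of other genes. How reads of such stretches were counted is not given, so the level of Fdps is uncertain, and its log2 fold change of -0.22 ± 0.44 (SE) had a 95% interval from -1.19 to 0.75. The same check, made after these values were seen, found 48.0% of stretches shared for Acat2, mostly with Acat3, 42.2% for Idi1, mostly with Gm13502 (4 to 10 counts in a library), and 32.9% for Fdft1. For Fdft1, 18.2% of stretches were shared with Ctsb, an overlapping gene on the other strand with 7523 to 8499 counts in a library. The level of Fdft1 is therefore uncertain too. The check found 16.5% for Hmgcs1, 10.9% for Scap and at most 5.04% for the other 27 genes.

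The next 11 enzymes, which make squalene, close it to lanosterol and trim that to cholesterol, had 5 positive and 6 negative values with a median of -0.02, and 0 of the 11 stood at an unadjusted p under 0.05. Fdft1, squalene synthase and the most abundant of them per length (18.7 FPKM in cKO and 19.8 FPKM in WT), had 75.8, 78.2, 83.7 and 81.2 CPM in cKO (1258, 1175, 1237 and 1296 counts), against 87.9, 85.5 and 77.4 CPM in WT (1436, 1385 and 1172 counts). The ranges overlapped, and the log2 fold change was -0.07 ± 0.08 (SE). Sqle, squalene epoxidase, an oxygen-dependent control point of the pathway, averaged 54.7 ± 2.11 CPM (SD, n = 4) in cKO and 54.0 ± 0.335 CPM (SD, n = 3) in WT. Its log2 fold change of 0.02 had a 95% interval from -0.14 to 0.18. Lss, the cyclase that forms lanosterol, averaged 34.8 CPM in cKO and 36.1 CPM in WT (-0.05).

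Among the enzymes that act on the sterol ring, Msmo1 and Cyp51 had the highest values. Msmo1, which takes part in removing methyl groups from the ring, had 83.0, 84.3, 101.1 and 94.9 CPM in cKO (1376, 1268, 1495 and 1515 counts), against 71.0, 91.2 and 71.3 CPM in WT (1160, 1476 and 1080 counts). WT replicates 1 and 3 lay below all of cKO, and WT replicate 2 lay within the cKO range. Its log2 fold change was 0.22 ± 0.11 (SE; unadjusted p = 0.0607), and 0.34 without WT replicate 2. Cyp51, the lanosterol demethylase, had 62.3, 68.2, 76.0 and 75.4 CPM in cKO (1034, 1025, 1124 and 1204 counts), against 66.6, 64.7 and 59.8 CPM in WT (1088, 1048 and 905 counts). cKO replicates 3 and 4 were the high libraries and cKO replicate 1 fell inside the span of WT, and the log2 fold change was 0.15 ± 0.09 (SE; unadjusted p = 0.131).

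Sc5d, a sterol desaturase, and Dhcr7, the reductase that turns dehydrocholesterol into cholesterol, had 0.12 and 0.11, with means of 69.3 and 24.2 CPM in cKO, against 63.9 and 22.5 CPM in WT. Sc5d had 0.044 without cKO replicate 3 and 0.22 with the mean of the myelin markers as a covariate (unadjusted p = 0.0354, adjusted p = 0.456 in edgeR), and Dhcr7 had 0.060 without WT replicate 1 and 0.068 without cKO replicate 3. Nsdhl and Hsd17b7, which work with Msmo1 in removing methyl groups, had -0.04 and -0.02, the sterol reductase Tm7sf2 had -0.06, and the sterol isomerase Ebp had -0.10. Over the 18 enzymes of both stretches, 8 values were positive and 10 negative. The 18 enzymes did not share an order of libraries by genotype: cKO replicate 3 was the highest library for 8 of the 18, WT replicate 1 for 5, and cKO replicates 1 and 2 for 0. Over all genes tested cKO replicate 3 was the highest library for 24.9% and WT replicate 1 for 19.2%.

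**Figure D2:**
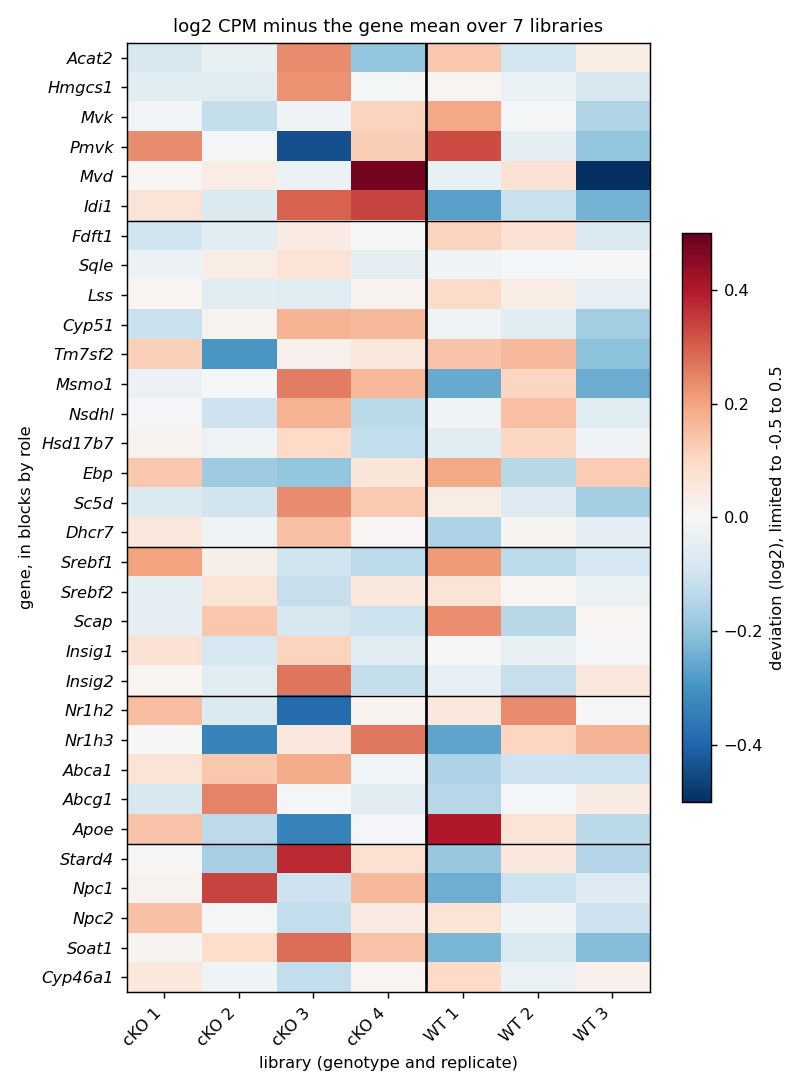
Log2 CPM of 32 of the 33 genes in each library, relative to the gene's average of all 7 libraries (red above, blue below, limited to -0.5 to 0.5); rows are genes in blocks by role, columns are the cKO and then the WT libraries, and Fdps is left out for its low counts. The rows of Idi1, Abca1 and Soat1 are blue in all of WT, as are those of Npc1 and Cyp51, and cKO replicate 3 and WT replicate 1 hold most of the deep colours.

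The SREBP transcription factors and the proteins that hold or release them had a median log2 fold change of -0.0021. Srebf2 encodes the SREBP tied mainly to cholesterol synthesis and was the most abundant regulator per length, at 39.0 FPKM in cKO and 39.8 FPKM in WT. It had 275, 296, 262 and 294 CPM in cKO (4564, 4457, 3866 and 4696 counts), against 297, 285 and 277 CPM in WT (4857, 4622 and 4192 counts). The ranges overlapped almost wholly, and the log2 fold change was -0.02 ± 0.08 (SE), with a 95% interval from -0.19 to 0.14. Srebf1, the SREBP tied mainly to fatty acid synthesis, averaged 49.5 ± 5.32 CPM (SD, n = 4) in cKO and 49.6 ± 6.60 CPM (SD, n = 3) in WT, a log2 fold change of -0.0021. Scap, which escorts the SREBPs to the Golgi, had -0.07, and Insig1 and Insig2, which hold Scap back when sterol is plentiful, had 0.03 and 0.06. Insig1 is itself a target of the SREBPs, and its mean was 58.0 ± 3.80 CPM (SD, n = 4) in cKO and 56.9 ± 0.800 CPM (SD, n = 3) in WT. Of the 5 regulators 0 stood at an unadjusted p under 0.05, and all 5 intervals lay within a 1.5-fold change in either direction.

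Among the LXR receptors and efflux genes, Abca1 stood at an unadjusted p under 0.05 and the other 4 did not, with a median over the 5 of -0.0036. Abca1 (ENSMUSG00000015243, chromosome 4, 53030787 to 53159895, reverse strand), which loads cholesterol onto lipid-poor apolipoproteins, had 62.4, 65.4, 67.7 and 59.0 CPM in cKO (1035, 983, 1001 and 941 counts), against 53.5, 55.4 and 55.3 CPM in WT (874, 897 and 837 counts). All of cKO lay above all of WT, and the WT libraries lay close together. The mean of 63.6 ± 3.79 CPM (SD, n = 4) in cKO was 1.16 times that of 54.7 ± 1.07 CPM (SD, n = 3) in WT. The log2 fold change was 0.22 ± 0.08 (SE), with an unadjusted p of 0.0173 and an adjusted p of 0.691 in edgeR. Abcg1, the transporter that loads larger particles, averaged 76.6 ± 8.34 CPM (SD, n = 4) in cKO and 73.1 ± 4.80 CPM (SD, n = 3) in WT (0.07), and -0.02 was found without cKO replicate 2, its highest library. The receptors Nr1h2 (LXR beta) and Nr1h3 (LXR alpha) had -0.16 and -0.0036. Nr1h2 had -0.072 without cKO replicate 3, -0.25 without cKO replicate 1 and -0.30 with the myelin mean as a covariate (unadjusted p = 0.028, adjusted p = 0.434 in edgeR). Nr1h3 was scarce at 0.935 FPKM in cKO and 0.944 FPKM in WT.

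Apoe, the main lipoprotein carrier of the brain and mostly a product of glia there, was the most abundant of the 33 per length, at 310 FPKM in cKO and 359 FPKM in WT. It had 775, 640, 557 and 696 CPM in cKO (12851, 9622, 8228 and 11108 counts), against 927, 734 and 640 CPM in WT (15146, 11893 and 9687 counts). WT replicate 1 was the highest and cKO replicate 3 the lowest library, and the other 5 lay between 640 and 775 CPM, where the ranges of the genotypes overlapped. Within each of the 3 pairs of same-numbered libraries, a pairing that the labels do not state, the cKO library was the lower one. The log2 fold change was -0.20 ± 0.13 (SE; unadjusted p = 0.155, adjusted p = 0.760 in edgeR), and with the replicate number as a block it was -0.22 (unadjusted p = 0.0305, adjusted p = 0.632 in edgeR). It was -0.05 without WT replicate 1, -0.32 without WT replicate 3 and 0.03 without both WT replicate 1 and cKO replicate 3. In bulk tissue fewer cells of a type and less RNA per cell cannot be told apart, and this holds for every gene here. The mean of 10 astrocyte markers, cells that make much of the apolipoprotein, was -0.07 to 0.11 in the cKO libraries and -0.15 to 0.06 in the WT libraries, with 10 of 10 detected in every library and summed levels of 5908 to 6694 CPM in cKO and 5828 to 6580 CPM in WT. The microglial marker mean was highest in WT replicate 1 (0.30). Their part in the values of Apoe was not tested.

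The 5 genes of transport within the cell, storage and turnover had the highest median of the role groups, 0.17, with 2 of the 5 at an unadjusted p under 0.05, beside 7.14% of all genes tested. The median was 0.072 without cKO replicate 3 and 0.11 with the myelin mean as a covariate. Soat1 (ENSMUSG00000026600, chromosome 1, 156424525 to 156474331, reverse strand), which esterifies cholesterol for storage in droplets, had 44.7, 47.1, 53.8 and 48.9 CPM in cKO (742, 708, 795 and 781 counts), against 37.9, 42.1 and 38.2 CPM in WT (619, 681 and 578 counts). The groups did not overlap. The mean of 48.6 ± 3.84 CPM (SD, n = 4) in cKO was 1.23 times that of 39.4 ± 2.33 CPM (SD, n = 3) in WT. The log2 fold change was 0.30 ± 0.09 (SE), and the unadjusted p of 0.00575 was the smallest among the 33, with an adjusted p of 0.679 in edgeR.

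Npc1 (ENSMUSG00000024413, chromosome 18, 12189693 to 12236400, reverse strand), the membrane protein that carries cholesterol out of lysosomes, had 89.2, 111.6, 82.2 and 98.7 CPM in cKO (1479, 1678, 1215 and 1575 counts), against 74.5, 81.8 and 84.4 CPM in WT (1218, 1324 and 1278 counts). Replicate 2 was the high cKO library, and cKO replicate 3 fell inside the span of WT. The log2 fold change was 0.25 ± 0.10 (SE; unadjusted p = 0.0327, adjusted p = 0.694 in edgeR), and 0.16 without cKO replicate 2. With the replicate number as a block it was 0.22 (unadjusted p = 0.0514, adjusted p = 0.663 in edgeR). Among the libraries, cKO replicate 2 also had the highest mean of myelin markers (0.48) and of 10 striatal neuron markers (0.59), and with the myelin mean as a covariate the value of Npc1 was 0.11. Npc2, the soluble partner that hands cholesterol to Npc1, averaged 44.4 ± 3.44 CPM (SD, n = 4) in cKO and 43.3 ± 2.57 CPM (SD, n = 3) in WT (0.04).

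Stard4, a cytosolic sterol carrier, averaged 44.7 ± 7.17 CPM (SD, n = 4) in cKO and 39.6 ± 3.65 CPM (SD, n = 3) in WT. Its log2 fold change of 0.17 ± 0.12 (SE) was 0.06 without cKO replicate 3, its highest library at 54.6 CPM, and 0.27 with the myelin mean as a covariate (unadjusted p = 0.046, adjusted p = 0.481 in edgeR). Cyp46a1, the hydroxylase by which neurons dispose of cholesterol, was the most abundant of the 5 per length, at 47.6 FPKM in cKO and 49.5 FPKM in WT. It had 165, 157, 146 and 161 CPM in cKO (2743, 2361, 2163 and 2566 counts), against 171, 156 and 162 CPM in WT (2792, 2521 and 2449 counts). The ranges overlapped, and the log2 fold change was -0.05 ± 0.07 (SE), with a 95% interval from -0.21 to 0.11.

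**Figure D3:**
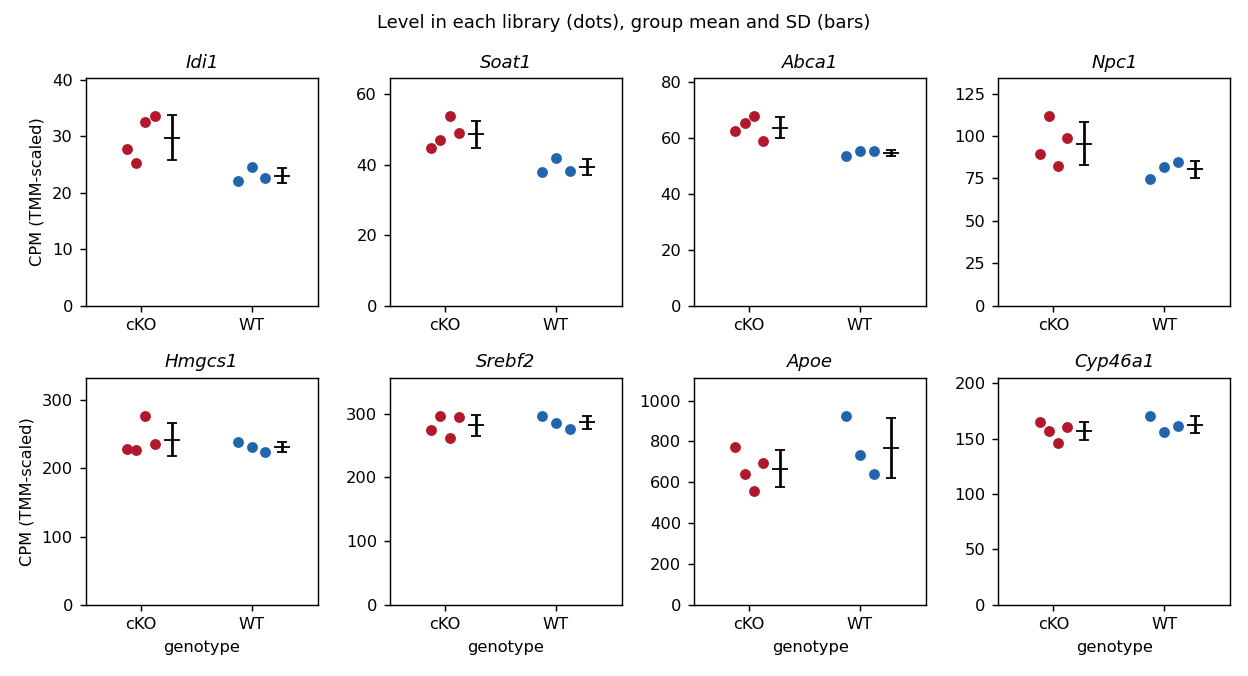
CPM (scaled by TMM, linear axis from 0) of 8 genes in each library as dots, cKO left of WT, with the group mean and SD as bars. The dots of Idi1, Soat1 and Abca1 do not overlap between genotypes, those of Npc1 overlap through cKO replicate 3 at 82.2 CPM, and those of Hmgcs1, Srebf2, Apoe and Cyp46a1 overlap.

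The promoters of the 3 genes whose groups did not overlap and of Hmgcs1 are shown to set the letters known from sterol control beside the genes whose values the comparison turns on. Each is RefSeq's window of 250 bases before to 50 bases after the annotated start (GRCm38.p6), printed 5′ to 3′ on the strand of the gene, and capitals mark matches to the sterol response element core TCACNCCAC or to CCAAT, searched on both strands, where CCAAT on the other strand reads ATTGG. The windows are chr13:119690101-119690400 (forward strand) for Hmgcs1, chr13:8885356-8885655 (forward strand) for Idi1, chr4:53159846-53160145 (reverse strand) for Abca1 and chr1:156474279-156474578 (reverse strand) for Soat1.
Hmgcs1 promoter: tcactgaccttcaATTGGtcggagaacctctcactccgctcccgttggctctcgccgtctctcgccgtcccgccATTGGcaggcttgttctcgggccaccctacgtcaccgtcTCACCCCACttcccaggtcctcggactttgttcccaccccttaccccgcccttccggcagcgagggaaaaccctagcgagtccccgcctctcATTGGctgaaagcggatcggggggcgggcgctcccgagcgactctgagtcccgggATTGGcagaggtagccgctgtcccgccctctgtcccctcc
Idi1 promoter: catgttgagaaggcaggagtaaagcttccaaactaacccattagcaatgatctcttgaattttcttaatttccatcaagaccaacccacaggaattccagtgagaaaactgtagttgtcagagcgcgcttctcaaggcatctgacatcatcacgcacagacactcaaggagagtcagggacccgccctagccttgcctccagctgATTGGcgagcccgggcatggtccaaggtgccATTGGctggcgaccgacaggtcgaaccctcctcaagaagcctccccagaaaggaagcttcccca
Abca1 promoter: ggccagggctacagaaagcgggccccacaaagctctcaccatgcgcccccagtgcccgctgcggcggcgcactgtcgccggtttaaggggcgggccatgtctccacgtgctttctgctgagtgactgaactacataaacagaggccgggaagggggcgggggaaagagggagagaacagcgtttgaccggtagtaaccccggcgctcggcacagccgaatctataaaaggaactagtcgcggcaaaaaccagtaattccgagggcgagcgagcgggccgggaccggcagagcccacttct
Soat1 promoter: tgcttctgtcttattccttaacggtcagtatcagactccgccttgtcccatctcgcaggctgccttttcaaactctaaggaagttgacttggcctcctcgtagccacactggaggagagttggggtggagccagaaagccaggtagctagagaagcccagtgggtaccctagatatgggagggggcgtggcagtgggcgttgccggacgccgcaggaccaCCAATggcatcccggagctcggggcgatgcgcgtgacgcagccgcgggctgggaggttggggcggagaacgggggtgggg
Of the 33 genes, 27 had a window in the RefSeq table. The core TCACNCCAC was found in 1 of the 27, Hmgcs1, where it begins 137 bases before the start, and in 1.44% of all 27025 genes of the table. CCAAT was found in 21 of the 27 (77.8%) and in 41.1% of all genes. The E-box CACGTG, which was added after the promoters were seen and is not in capitals, was found in 6 of the 27, Abca1 among them, and in 8.09% of all genes. These matches are descriptions of letters in these windows, and a gene with several starts had several windows.

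Set side by side, the role groups did not order the libraries alike. The mean of log2 CPM, relative to each gene's average of all 7 libraries, ran from 0.05 to 0.09 in the cKO libraries and from -0.10 to -0.04 in the WT libraries for transport, storage and turnover. This was the role group in which no cKO library overlapped a WT library. The mean of the inhibitory neuron markers did not overlap either, at 0.0080 to 0.13 in cKO and -0.10 to -0.05 in WT. The mean of 8 other genes of lipoprotein uptake, described below, also did not, at 0.00597 to 0.074 in cKO and -0.11 to 0.00588 in WT. How often the mean of a gene list separates the groups was not computed. For the early enzymes the mean ran from -0.06 to 0.16 in cKO and from -0.09 to 0.03 in WT, and for the later enzymes from -0.07 to 0.09 in cKO and from -0.08 to 0.04 in WT. The regulators had -0.07 to 0.04 in cKO and -0.08 to 0.09 in WT, and the LXR and efflux genes -0.10 to 0.06 in cKO and -0.02 to 0.06 in WT. Myelin markers spread far more, from -0.44 to 0.48 in cKO and from -0.60 to 0.01 in WT. Of these 15 markers, 15 were detected in every library, with summed levels of 4575 to 9038 CPM in cKO and 4204 to 6524 CPM in WT, and 15 of 15 had a positive log2 fold change with a median of 0.35. Excitatory neuron markers had a median of -0.22, with summed levels of 4482 to 5800 CPM in cKO and 5764 to 6363 CPM in WT. Striatal neuron markers were positive for 10 of 10 with a median of 0.31 and summed levels of 1002 to 1810 CPM in cKO and 963 to 1254 CPM in WT, and inhibitory neuron markers for 5 of 7 with a median of 0.18 and summed levels of 913 to 1293 CPM in cKO and 828 to 926 CPM in WT, all 17 of these markers being detected in every library. With the myelin mean as a covariate the log2 fold changes were 0.41 for Idi1, 0.34 for Soat1 and 0.24 for Abca1, and the part of the neuron markers was not tested.

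**Figure D4:**
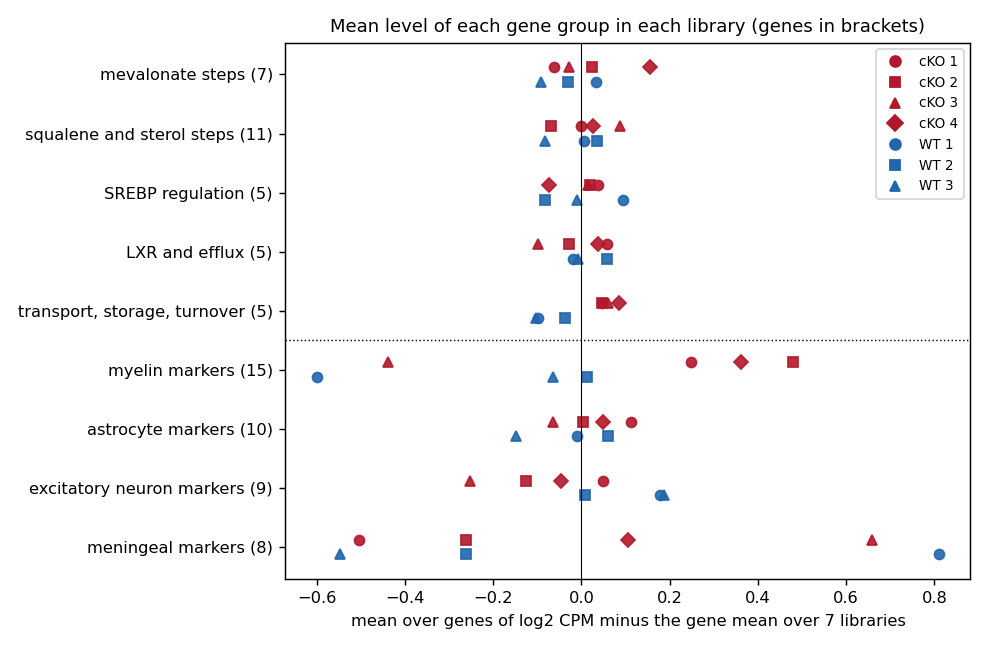
Mean over the genes of each group of log2 CPM relative to each gene's average of all 7 libraries, with 1 symbol per library (red cKO, blue WT) and the number of genes in brackets. The 5 cholesterol groups above the dotted line lie between -0.10 and 0.16, while myelin and meningeal markers below it reach from -0.60 to 0.81.

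Other genes of sterol and lipid handling, in 5 lists, were described in the same way. Of 45 such genes, all tested, 31 had values above 0 and 14 below, and the median log2 fold change was 0.06. Called at an adjusted p under 0.05 were 0 of the 45 in edgeR. At an unadjusted p under 0.05 stood 5 (11.1%), beside 7.14% of all genes tested, and all 5 had higher values in cKO, beside 4.22%. Among 12 genes of fatty acid synthesis and desaturation, which SREBPs and LXRs also govern, these were 3. Elovl6, a fatty acid elongase, had 79.1, 87.9, 100.4 and 83.5 CPM in cKO, against 63.3, 67.4 and 72.6 CPM in WT, groups that did not overlap (log2 fold change 0.37 ± 0.09, SE; unadjusted p = 0.00193, adjusted p = 0.679). Elovl5, another elongase, averaged 87.4 ± 4.56 CPM (SD, n = 4) in cKO and 72.1 ± 7.65 CPM (SD, n = 3) in WT (0.28). Scd1, a desaturase, averaged 283 ± 36.2 CPM (SD, n = 4) in cKO and 223 ± 27.9 CPM (SD, n = 3) in WT (0.35).

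Lipa, the lysosomal lipase that frees cholesterol from its esters, had 22.7, 26.7, 28.7 and 26.8 CPM in cKO, against 19.3, 20.8 and 18.4 CPM in WT. Its groups did not overlap, and its log2 fold change of 0.43 ± 0.11 (SE; unadjusted p = 0.00201, adjusted p = 0.679) was the highest of the 45. It was 1 of 8 genes of lipoprotein uptake. Apod, a lipocalin of glia, averaged 141 ± 18.3 CPM (SD, n = 4) in cKO and 115 ± 20.4 CPM (SD, n = 3) in WT (0.29) and was 1 of 8 efflux and lipoprotein genes. The 10 genes of SREBP processing and sterol-regulated degradation and the 7 of sterol transfer between membranes had 0 at an unadjusted p under 0.05. Every cKO library lay above every WT library for 7 of the 45, beside 3.97% of all genes tested, and every cKO library lay below every WT library for 0, beside 3.42%.

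**Figure D5:**
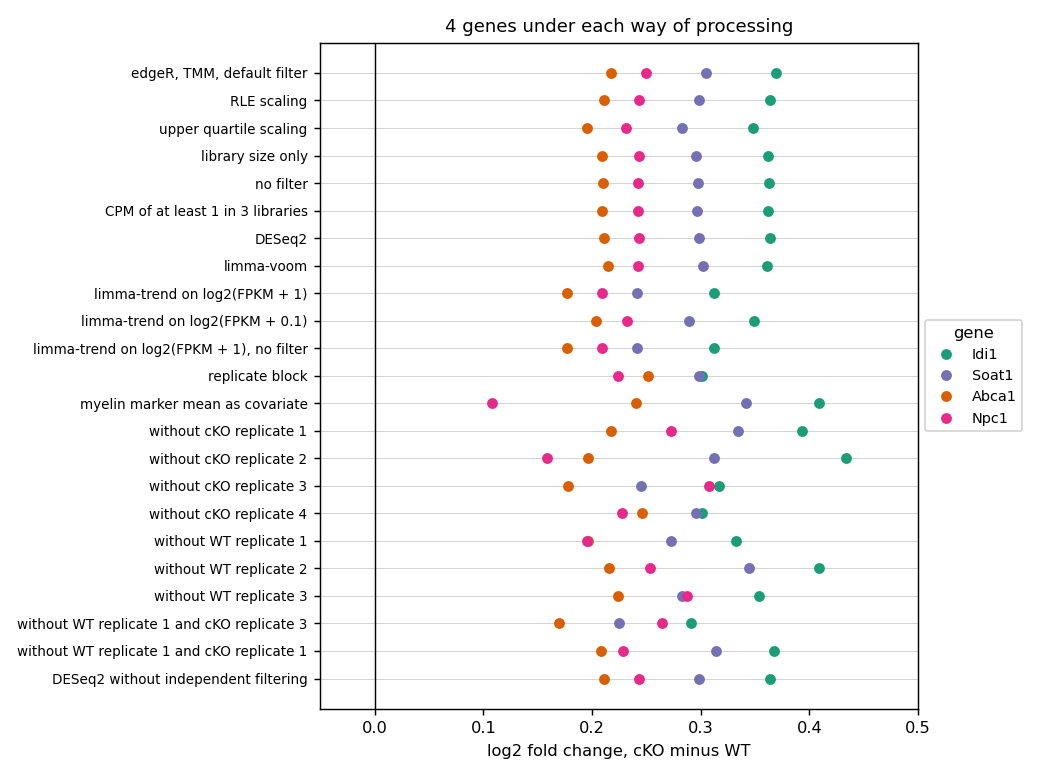
Log2 fold change (cKO minus WT) of Idi1, Soat1, Abca1 and Npc1 under the reported processing (top row) and each other way of processing or set of libraries. All points lie to the right of 0, those of Idi1 between 0.29 and 0.43, and Npc1 is lowest with the myelin marker mean as a covariate (0.11). The genes were picked for their unadjusted p in the same libraries.

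Under every way of processing tried, and without any single library, Idi1, Soat1, Abca1 and Npc1 kept a positive log2 fold change and 0 of the 33 genes were called. These genes were picked for their unadjusted p in the same libraries, so the kept sign is no separate test. The groups of Idi1, Soat1 and Abca1 did not overlap, so leaving out a library could hardly turn their sign. Idi1 lay between 0.29 and 0.43, Soat1 between 0.23 and 0.34, Abca1 between 0.17 and 0.25 and Npc1 between 0.11 and 0.31. Among the 5 libraries of male mice (3 cKO and 2 WT), a split added after the data were seen, Soat1 had 0.31 and Idi1 0.37, with Cyp51 at 0.23. Of the 33 genes these 3 stood at an unadjusted p under 0.05 in edgeR, beside 802 of all genes tested in that split. With all 7 libraries the counts were 4 of the 33 and 1164 of all genes tested. The share of genes tested was not computed for the split, so its count of members is not read as a result. Female mice gave 1 library of each genotype, too few for a test.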

How the data were processed

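Gene counts and FPKM values were deposited by the authors for 7 libraries, in tables with symbol, position and biotype. The submitters' processing notes list featureCounts 1.5.0-p3, DESeq2 1.20.0 and the build mm10; aligner, annotation release, strand setting and handling of multiply matched reads are not given in the sources used. Per the labels' protocols, second-strand synthesis used plain dNTPs, so no strand marking is described, and genes that overlap cannot be told apart by strand. The deposited FPKM values serve here only for levels between genes and as an alternative.

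The counts were tested with edgeR 4.0.16 (R 4.3.3): TMM factors, the default filterByExpr filter, the quasi-likelihood F test of genotype, and Benjamini-Hochberg adjustment over 16308 genes. CPM use TMM-scaled totals, and log2 CPM a prior count of 2. The script was tested on simulated data. All 33 genes are named; values per library are printed for the 8 with the smallest p and the most abundant of each role group, and other genes of the pathway are named at an unadjusted p under 0.05. The members and lists were chosen with earlier results of these data known.

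Replicate numbers recur in both genotypes without a stated meaning. Deviations of same-numbered libraries correlated at 0.11, 0.128 and 0.122 across genes, each above 0.1. Libraries of unlike number reached higher values in 2 cases: 0.129 for cKO replicate 3 with WT replicate 1 and 0.21 for cKO replicate 4 with WT replicate 2. The rest of unlike number lay lower, from -0.239 (cKO replicate 3 with WT replicate 2) to 0.0845 (cKO replicate 2 with WT replicate 3). Replicate 1 was the female library in both genotypes. The correlations therefore do not settle whether the numbers are pairs, and a block by replicate number was used only as an alternative. Alternatives were other scalings and filters, DESeq2 1.42.0, limma-voom and limma-trend (limma 3.58.1), the replicate block, a myelin covariate and left-out libraries. Shared stretches of 50 bases were counted every 10 bases along GENCODE M21 transcripts. Figures were drawn with matplotlib 3.10.9.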

Additional observations from a re-analysis of the deposited data

Results flagged for a closer look

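Mvd, the mevalonate pathway decarboxylase, had 16.6 CPM in cKO replicate 4, against 11.7 to 12.2 CPM in the other 3 cKO libraries. The gap to the nearest of them is 0.891 of the range of the group, a wide gap for 4 libraries, and chance flags about 1 in 20 groups. The cKO libraries of all 33 genes were checked in this way and only Mvd was flagged, which is no more than chance would give at that rate. The same library had the highest choroid plexus marker mean (1.47), and the part of those cells in this value was not tested.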

How the results depend on the processing

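Of the 33 genes, 0 were called under any alternative tried. The count of all genes called was 198 with no filter on low counts (2088 genes at an unadjusted p under 0.05), 12 with DESeq2, 3 on log2(FPKM + 1) with no filter, 2 with the replicate block and 7 with the myelin covariate. DESeq2 without independent filtering called 4. It was added after the data were seen, because independent filtering, set for 0.05, left 10118 genes, 12 of them members, without an adjusted p. With that filtering set for 0.1, 6 genes were called, and 4751 genes, 2 of them members, had no adjusted p. Without both WT replicate 1 and cKO replicate 3, also added after the data were seen, 1 gene was called. Leaving out 1 library, or 1 of 2 pairs of libraries, gave 0 to 3 genes called, 558 (without WT replicate 1) to 1596 genes at an unadjusted p under 0.05, and 2 (without WT replicate 1) to 6 (without cKO replicate 1) members with higher values at that p. The count of members with lower values at that p was 1 with no filter (Apoe), with the replicate block (Apoe), with the myelin covariate (Nr1h2) and without WT replicate 3 (Apoe).

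Medians moved beyond the spread between replicates as follows. With the myelin covariate they were 0.032 for all 33, 0.094 for the early enzymes and 0.11 for transport, storage and turnover. On log2(FPKM + 1), with and without a filter, the last was 0.14. With the replicate block the LXR and efflux median was -0.097. Without WT replicate 1 and cKO replicate 3 the early enzymes had 0.073 and transport, storage and turnover 0.12. Without WT replicate 1 and cKO replicate 1, the female mice, the medians were 0.036 for all 33, 0.071 for the early enzymes and -0.12 for LXR and efflux. Over these left-out libraries, singly or in those pairs, the ranges were -0.019 to 0.036 for all 33, -0.050 to 0.082 for the early enzymes, -0.12 to 0.077 for LXR and efflux and 0.072 to 0.24 for transport, storage and turnover.

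The genes whose sign turned had reported log2 fold changes between -0.22 and 0.068, and the cause was not tested. Upper quartile scaling turned Sqle (-0.00231) and limma-voom Srebf1 (0.000225). With the replicate block the values that turned were Acat2 0.013, Hsd17b7 0.020 and Srebf1 0.044, and with the myelin covariate Acat2 0.094, Mvk 0.032, Tm7sf2 0.0046, Nsdhl 0.023, Hsd17b7 0.00536 and Srebf1 0.038. Without WT replicate 1 and cKO replicate 3 they were Mvk 0.073, Pmvk 0.24, Sqle -0.0080, Ebp 0.013, Srebf1 0.15, Srebf2 0.037, Scap 0.057, Insig2 -0.027, Apoe 0.034 and Cyp46a1 0.021. Without the female mice they were Acat2 0.036, Mvk 0.071, Pmvk 0.031, Srebf1 0.039, Srebf2 0.013 and Scap 0.045. Over the left-out libraries the ranges that crossed 0 were -0.019 to 0.11 for Abcg1, -0.14 to 0.036 for Acat2, -0.32 to 0.034 for Apoe, -0.090 to 0.021 for Cyp46a1, -0.21 to 0.013 for Ebp and -0.37 to 0.025 for Fdps. They were also -0.014 to 0.11 for Hmgcs1, -0.087 to 0.020 for Hsd17b7, -0.013 to 0.051 for Insig1, -0.030 to 0.11 for Insig2, -0.10 to 0.073 for Mvk and -0.019 to 0.12 for Npc2. The rest were -0.14 to 0.087 for Nr1h3, -0.13 to 0.015 for Nsdhl, -0.15 to 0.24 for Pmvk, -0.16 to 0.057 for Scap, -0.0099 to 0.031 for Sqle, -0.083 to 0.15 for Srebf1, -0.056 to 0.037 for Srebf2 and -0.17 to 0.015 for Tm7sf2.

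Depth limits Fdps (at most 14 counts) and Nr1h3 (28 to 45 counts). With 4 against 3 libraries, a p above the threshold does not show that the genotypes are alike.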
